A study of Mus musculus with 6 samples.

Results

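The VEGF family was read in RNA-seq libraries of mouse LSECs (liver sinusoidal endothelial cells) from HCT116 CRCLM xenografts (liver metastases of a human colorectal cancer cell line) that were either sensitive or resistant to bevacizumab, an antibody against VEGF-A. The members were the ligand genes Vegfa, Vegfb, Vegfc and Pgf, the receptor tyrosine kinases Kdr, Flt1 and Flt4 and the coreceptors Nrp1 and Nrp2, found in the table by these gene symbols. These were 9 of the 60832 genes listed, and 9 of 9 passed the filter on low counts that left 15474 genes for testing. There were 3 libraries per group, and all 6 came from cells isolated with anti-CD146 beads and cultured for 24 h. By the methods, the hosts were male BALB/c-Nu mice, a strain that lacks a thymus, obtained at 4 to 6 weeks of age and injected in the liver with HCT116 cells. The resistant group had received bevacizumab at 10 mg/kg for 7 weeks by the methods, or for 42 days by the main text, and the vehicle mice of these models received IgG. The study does not say outright that the sensitive group was this vehicle group. Resistance and long exposure to bevacizumab came together in the resistant group, so their effects cannot be told apart. The labels do not say whether each library came from a mouse of its own, so p-values measure only the spread between these samples.

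VEGF-A acts mainly through VEGF receptor 2, the product of Kdr, to drive endothelial growth, survival and permeability. VEGF receptor 1, the product of Flt1, binds VEGF-A, VEGF-B and PlGF and can act as a decoy, and VEGF receptor 3, the product of Flt4, binds VEGF-C. In healthy liver, hepatocytes are a main source of VEGF-A, and LSECs carry the receptors. Myeloid cells express neuropilins and can make VEGF-A. Bevacizumab was raised against human VEGF-A, whereas the counts here are of mouse genes.

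Total counts were between 17599326 and 20726684 per library, where 3 counts correspond to 0.145 to 0.170 CPM (counts scaled to library size, a floor that covers counting error only). This floor is per total count. The CPM values below use library sizes scaled further by TMM, with factors of 0.878 to 1.07, so it differs somewhat on their scale. Replicate 2 of the sensitive group stood apart, with a median Pearson's r of 0.872 with the other libraries over the genes tested, against 0.957 to 0.963 for the rest. The summed level of 18 macrophage and Kupffer cell markers was 25720 to 46416 CPM in the sensitive and 29077 to 34106 CPM in the resistant group. Against this, 14 pan-endothelial markers summed to 264 to 398 CPM and 44.3 to 353 CPM, and 10 LSEC markers to 1074 to 2399 CPM and 1249 to 1919 CPM, with Stab1 and Mrc1, which macrophages also express, the most abundant. No endothelial marker was at 0 in any library, but the defining marker Cdh5 (VE-cadherin) had only 18.2 CPM in replicate 2 of the resistant group. Mcam, the gene of the CD146 used for isolation, had 0.812, 1.55 and 3.86 CPM in the sensitive and 0.362, 0.307 and 1.33 CPM in the resistant libraries. LSEC is used here as the name in the sample titles, and the level of a member is that in all RNA of a library, macrophage RNA included. These were bulk samples, in which fewer cells of a type and less RNA per cell cannot be told apart.

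The level of each member per length was read from the deposited FPKM values (counts scaled to gene length and library depth). Vegfb and Vegfa were the most abundant members, with medians of 19.3 and 17.5 FPKM over the 6 libraries. The neuropilins followed, with 12.1 FPKM for Nrp1 and 13.2 FPKM for Nrp2. The other 5 members lay lower, with medians of 2.01 FPKM for Flt4, 1.502 for Pgf, 1.31 for Vegfc, 0.735 for Kdr and 0.534 for Flt1. Ordered by the mean of log2(FPKM + 0.01), neighbours held their order in all 6 libraries in 2 of 8 pairs, Nrp2 above Flt4 and Kdr above Flt1 (two-sided exact permutation of signs, p = 0.03125, which is the lowest value reachable with 6 libraries, and adjusted p = 0.125 over the 8 pairs). Nrp2 exceeded Flt4 by 2.85 ± 1.15 on the log2 scale (SD, n = 6), a gap between the abundant and the scarce members. The other 6 pairs of neighbours changed order between libraries, and their exact p-values were 0.219 or more. The order and its neighbours were taken from the same 6 libraries, so these p-values only describe the pairs.

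**Figure D1:**
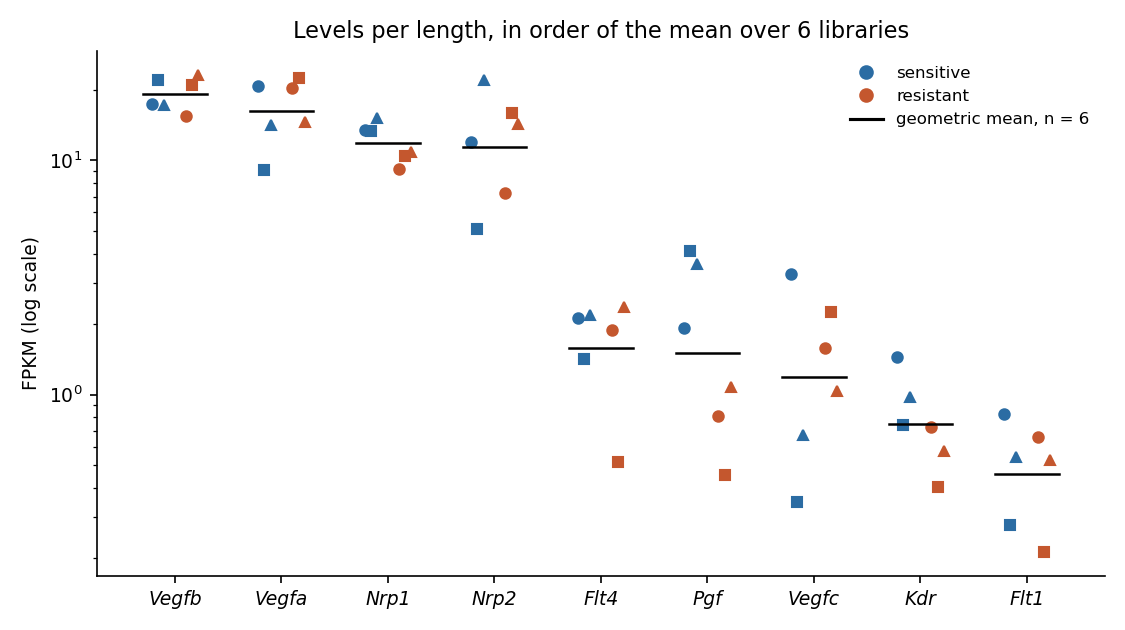
Deposited FPKM (log axis) of each VEGF gene in the 3 sensitive and 3 resistant libraries, with circles, squares and triangles for replicates 1, 2 and 3 and a line at the geometric mean of the 6 libraries. Vegfb, Vegfa, Nrp1 and Nrp2 sit at 5.09 FPKM or above in each library, and the other 5 genes at 4.11 FPKM or below.

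When resistant LSECs were set against sensitive LSECs, edgeR's quasi-likelihood test called 0 of the 9 members after Benjamini-Hochberg adjustment at 0.05, and 0% of all genes tested. Before adjustment 3 members passed 0.05, namely Pgf, Kdr and Nrp1, each lower in the resistant group, while 3.08% of all genes tested passed this threshold and 2.54% passed it as lower. These 3 members were also the ones whose groups were fully apart, as were 9.02% of all genes tested, 4.38% as lower and 4.64% as higher. The fitted change was negative for 7 members and positive for 2, with a median log2 fold change of -0.27, against 0.01 over all genes tested. In simulated data, edgeR's test called only 1 of 100 genes changed 2-fold and 50 of 100 changed 4-fold. The lack of a call here therefore does not show that a gene was unchanged.

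**Figure D2:**
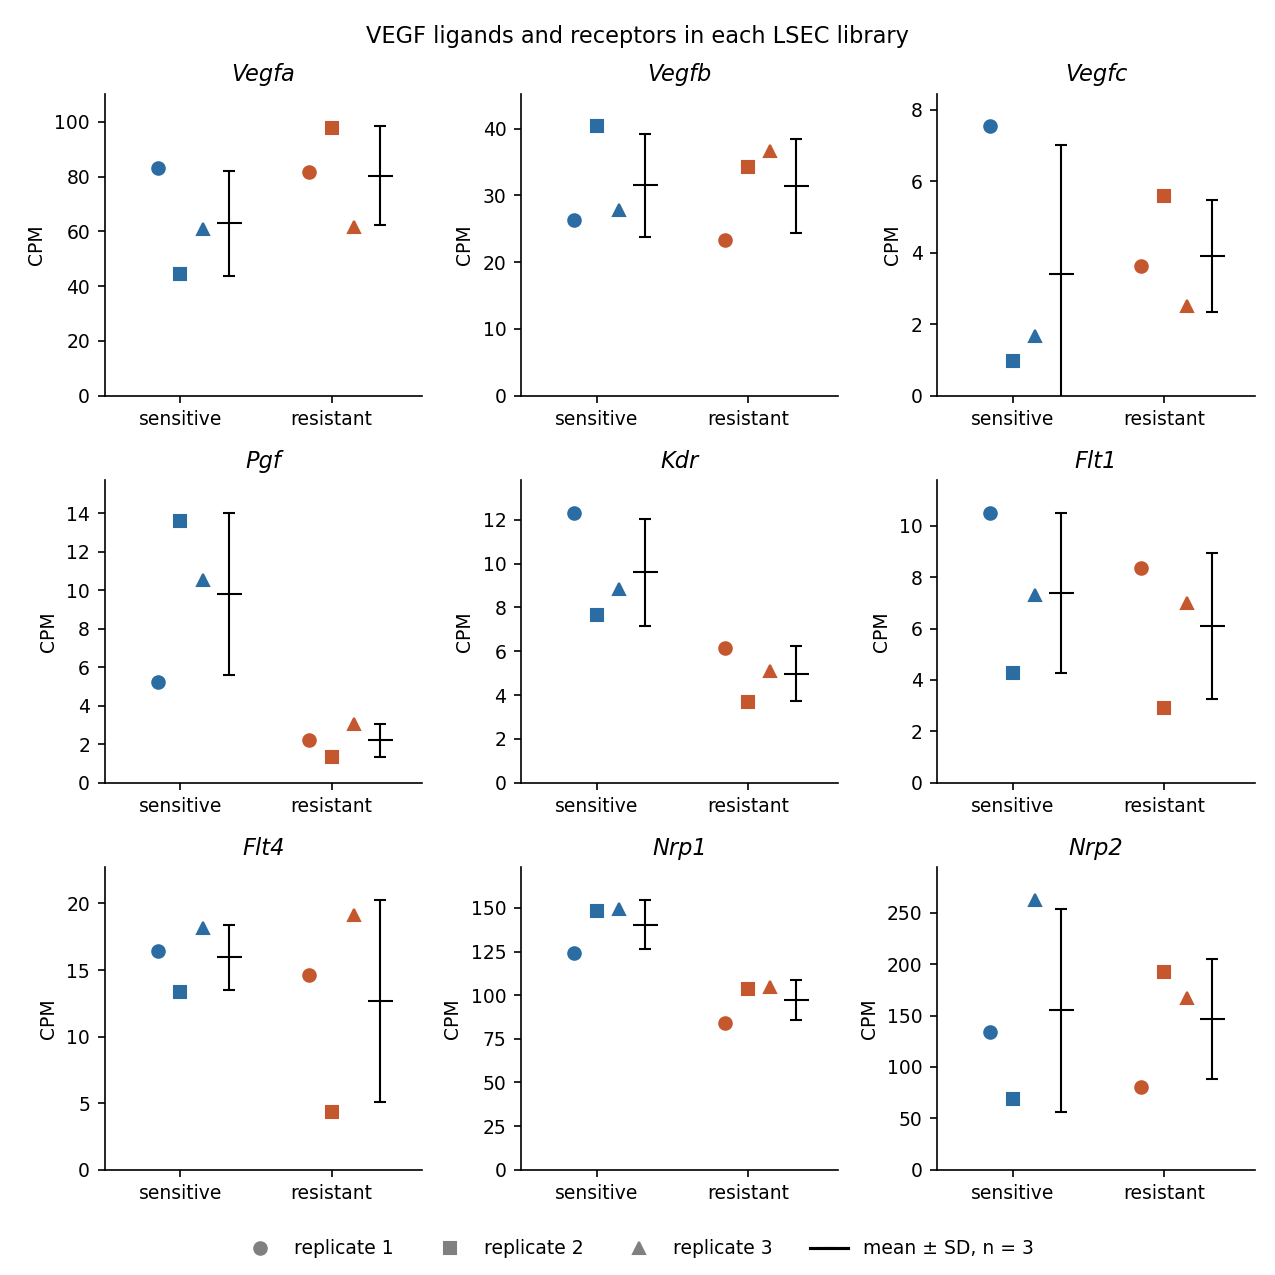
CPM of each VEGF gene in each library on axes that start at 0, with the mean and SD of the 3 libraries per group as a bar (the bar of Vegfc in the sensitive group is cut at 0). The groups are apart for Pgf, Kdr and Nrp1 and overlap for the other 6 genes.

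Among the ligands, Pgf had the largest fitted difference. Pgf encodes placental growth factor, a ligand of VEGF receptor 1 that is scarce in most healthy tissues, and lies on chromosome 12 of GRCm38 from 85166635 to 85177790. It had 5.25, 13.6 and 10.5 CPM in sensitive replicates 1, 2 and 3 and 2.21, 1.33 and 3.07 CPM in resistant replicates 1, 2 and 3, on the basis of 26 to 216 counts. Each resistant library was below each sensitive library, and the lowest sensitive value was in replicate 1. The level was 4.43-fold higher in the sensitive group (95% interval 1.97 to 9.98), a log2 fold change of -2.15 ± 0.496 (standard error, n = 3 per group), with an unadjusted p of 0.00338 and an adjusted p of 0.940 in edgeR's quasi-likelihood test. By unadjusted p, Pgf ranked 17 of the 15474 genes. With DESeq2, the adjusted p of Pgf was 0.0394, and it was between 0.619 and 1.000 under the other alternatives set at the start; DESeq2 called 0.155% of all genes, 0.103% as lower. Without replicate 2 of the sensitive group the log2 fold change was -1.84, and over the 6 fits that each left out a library it stayed between -2.44 and -1.84.

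Markers of other cells were read beside Pgf, and their summed levels overlapped between the groups. The 8 neutrophil markers were all fitted as lower in the resistant group, of which 1 passed 0.05 before adjustment in edgeR's test (2.54% of all genes tested did so as lower), and their summed level was 505 to 7527 CPM in the sensitive and 248 to 1831 CPM in the resistant group. The 14 pan-endothelial markers, described with the receptors, were mostly fitted as lower too. Hepatocyte markers were fitted as higher for 7 of 7 (median log2 fold change 1.00). In order of replicate, they summed to 82.5, 102 and 33.4 CPM in the sensitive and 60.8, 194 and 95.4 CPM in the resistant libraries. Stellate cell markers were fitted as higher for 7 of 8 (median 0.59), with sums of 152, 166 and 86.5 CPM and 89.1, 367 and 120 CPM. For both lists the highest sum was in resistant replicate 2, and 0 of either list passed 0.05 before adjustment in edgeR's test. Of the 18 macrophage markers, 10 were fitted as lower and 8 as higher. As lower, 2 of them passed 0.05 before adjustment in edgeR's test. In order of replicate, the neutrophil sums were 4610.5, 7527 and 505 CPM in the sensitive and 1831, 1455 and 248 CPM in the resistant libraries. The part of these cells in the difference in Pgf was not tested.

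Vegfa, the main ligand of VEGF receptor 2 and the target gene of the hypoxia response, lies on chromosome 17 from 46016993 to 46032369. It had 83.1, 44.6 and 60.9 CPM in the sensitive libraries, in order of replicate, and 81.5, 97.9 and 61.6 CPM in the resistant ones. The groups overlapped, and the lowest value was in the sensitive library that stood apart. The log2 fold change was 0.35 (95% interval -0.34 to 1.04) with all libraries and 0.15 without that one. The counts are per gene, and the annotation lists 8 protein-coding transcripts of Vegfa, so the heparin-binding and the freely diffusing isoforms of VEGF-A cannot be separated.

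Vegfb encodes a ligand of VEGF receptor 1 that is linked to fatty acid uptake in heart and muscle. It was the steadiest ligand, with 26.3, 40.4 and 27.8 CPM in the sensitive and 23.3, 34.2 and 36.7 CPM in the resistant libraries. The groups overlapped almost fully, and the log2 fold change was -0.00 (95% interval -0.65 to 0.64), so a change of more than 1.57-fold in either direction lay outside the interval. Vegfc, which encodes the ligand of VEGF receptor 3 and drives lymphatic growth, had 7.54, 0.971 and 1.66 CPM in the sensitive and 3.62, 5.59 and 2.51 CPM in the resistant libraries. The sensitive libraries lay on both sides of the resistant ones, and 15 to 158 counts stood behind these values. Its log2 fold change of 0.20 (95% interval -1.65 to 2.04) rested on single libraries, since it was 1.56 without replicate 1 (unadjusted p = 0.0400 in edgeR's test) and -0.25 without replicate 2 of the sensitive group.

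Of the receptors, Kdr was lower in the resistant group. Kdr encodes VEGF receptor 2, the main signalling receptor for VEGF-A on endothelium, and lies on chromosome 5 from 75932827 to 75978458. It had 12.3, 7.64 and 8.84 CPM in the sensitive libraries and 6.15, 3.69 and 5.11 CPM in the resistant libraries. The groups did not overlap, and replicate 2 was the lowest library of each. The log2 fold change was -0.94 (95% interval -1.75 to -0.14, unadjusted p = 0.0277, adjusted p = 0.940, edgeR), and adjustment gave between 0.611 and 1.000 under the alternatives set at the start. Without replicate 2 of the sensitive group it was -1.09.

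Nrp1, on chromosome 8 from 128358604 to 128503363, encodes neuropilin 1, which binds heparin-binding VEGF-A and strengthens VEGF receptor 2 signalling, and also serves as a semaphorin receptor on neurons and immune cells. It had 124, 148 and 149 CPM in the sensitive libraries and 84.2, 104 and 105 CPM in the resistant libraries, from 1863 to 3055 counts. The groups did not overlap, and Nrp1 varied least within the groups of the 9 members, with a coefficient of variation of 10.1% in the sensitive and 11.8% in the resistant group. The level was 1.44-fold higher in the sensitive group (95% interval 1.05 to 1.97), with an unadjusted p of 0.0287 and an adjusted p of 0.940 in edgeR's quasi-likelihood test, and 0.659 to 1.000 under the alternatives set at the start. With a library left out, the log2 fold change stayed between -1.12 and -0.72 for Kdr and between -0.60 and -0.42 for Nrp1, while the unadjusted calls in edgeR's test were lost in part. Without resistant replicate 2 or 3 only Pgf of the 9 members passed 0.05, since the p-values became 0.103 and 0.0756 for Kdr and 0.0715 and 0.0707 for Nrp1. Of all genes tested, 1.51% and 1.03% passed in these fits, against 3.08% with all libraries. Kdr also missed 0.05 without sensitive replicate 1 (0.112), and Nrp1 without sensitive replicate 3 (0.0823) or resistant replicate 1 (0.112). There, 3.76%, 6.53% and 3.91% of all genes tested passed.

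The stretches before the start sites of Kdr and Nrp1 are shown because both receptor genes had groups that were apart. Both run 5′ to 3′ toward the start site over 250 bases of the RefSeq promoter table (GRCm38.p6), at chr5:75978456-75978705 on the minus strand for Kdr and chr8:128358823-128359072 on the plus strand for Nrp1. In the gene annotation used for the other coordinates, the Nrp1 gene begins upstream of this window, with the first exon of a transcript that retains an intron. Its protein-coding transcript starts at 128359284, downstream of the window, which holds 0 bases of annotated Nrp1 exons. The Kdr window ends with the first 3 bases of the first exon. Capitals mark matches on either strand to the GC box (GGGCGG or CCGCCC) and to a core of the HIF site (GCGTG or CACGC).
Kdr: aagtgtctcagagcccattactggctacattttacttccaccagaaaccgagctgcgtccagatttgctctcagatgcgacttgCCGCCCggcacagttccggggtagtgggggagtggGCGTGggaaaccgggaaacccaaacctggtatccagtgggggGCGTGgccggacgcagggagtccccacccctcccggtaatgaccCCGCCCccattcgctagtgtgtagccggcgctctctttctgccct
Nrp1: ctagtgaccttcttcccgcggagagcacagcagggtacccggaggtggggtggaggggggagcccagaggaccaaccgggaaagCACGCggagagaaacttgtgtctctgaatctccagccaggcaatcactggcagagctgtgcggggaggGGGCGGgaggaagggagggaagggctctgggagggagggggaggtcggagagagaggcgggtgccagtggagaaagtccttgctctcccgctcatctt
The Kdr window held 2 GC boxes and 2 HIF cores, and the Nrp1 window 1 of each. These matches do not overlap each other. On either strand, neither window held the other form of the HIF core, ACGTG. Nor did they hold a TATA box, searched as TATAAA, or the CCAAT box. Over the 32851 promoter windows of this length, 32.7% held a GC box, 28.2% the first form of the HIF core, 16.6% the other form, 12.4% a TATA box and 33.8% a CCAAT box. Among the 11 windows of the 9 members, GC content was between 59.2% and 76.4%, against a median of 52.4% over all windows. They include windows of the ligand gene Pgf, whose groups were also apart. Those of Pgf lie inside its annotated gene and are not shown. These matches describe the letters only.

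Flt1, on chromosome 5 from 147561604 to 147726011, encodes VEGF receptor 1 and its soluble decoy form, which counts per gene cannot separate. It had 10.5, 4.27 and 7.32 CPM in the sensitive and 8.36, 2.92 and 7.01 CPM in the resistant libraries. The groups overlapped, and replicate 2 was again the lowest in both. The log2 fold change was -0.27 (95% interval -1.46 to 0.92) and turned to 0.07 without replicate 1 of the sensitive or replicate 2 of the resistant group. Flt4, which encodes VEGF receptor 3, had 16.4, 13.3 and 18.2 CPM in the sensitive libraries and 14.6, 4.30 and 19.1 CPM in the resistant libraries. Its difference rested on 1 library, as the log2 fold change of -0.33 (95% interval -1.53 to 0.86) became 0.09 without replicate 2 of the resistant group. Of 4 lymphatic endothelial markers, Prox1, Ccl21a and Mmrn1 did not pass the filter, with at most 24 counts in a library. The remaining marker Pdpn (podoplanin), which other cell types also express, had 293 to 738 counts, and Flt4 had 84 to 374.

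Nrp2 encodes neuropilin 2, a coreceptor for VEGF-C and VEGF receptor 3 that macrophages and lymphatic endothelium also express. It spread widely, with 134, 68.7 and 263 CPM in the sensitive and 80.7, 192 and 167 CPM in the resistant libraries. The sensitive libraries held both the lowest and the highest value. The log2 fold change was -0.08 (95% interval -1.32 to 1.157), and it ran from -0.44 without replicate 2 to 0.55 without replicate 3 of the sensitive group.

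**Figure D3:**
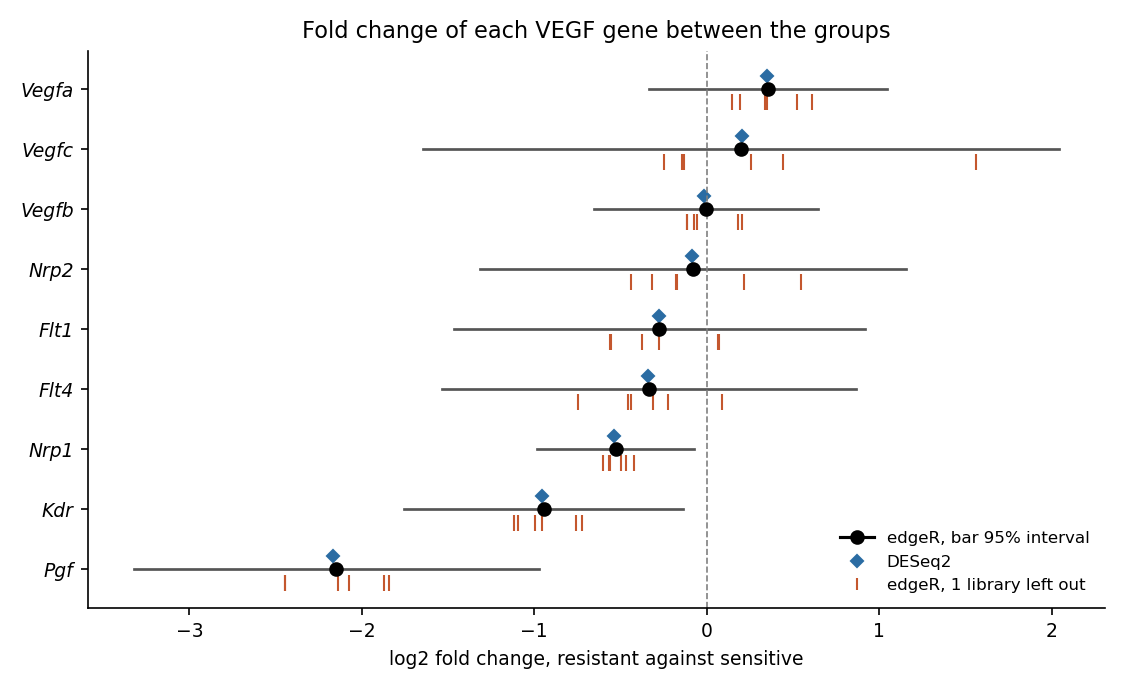
Log2 fold change of each VEGF gene in resistant against sensitive LSECs from edgeR (black, bar for the 95% interval), from DESeq2 (blue) and from edgeR with each library left out in turn (orange ticks). The intervals of Pgf, Kdr and Nrp1 lie below 0, and those of the other 6 genes span 0.

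Endothelial RNA was then read beside the receptors. Of the 14 pan-endothelial markers, which leave out the VEGF receptors, 13 had a negative fitted change and 5 were lower without overlap, as were 4.38% of all genes tested. Tek, Erg, Egfl7 and Emcn were lower at 0.05 before adjustment in edgeR's test, as were 2.54% of all genes tested, and 0 of 14 passed after it (these genes are named after their values were seen). The median log2 fold change of these markers was -1.27, against 0.01 over all genes tested. It was -0.76 without replicate 2 of the resistant group, with 10 of 14 negative. Cdh5 had 183, 47.8 and 219 CPM in the sensitive and 202, 18.2 and 229.6 CPM in the resistant libraries, low in replicate 2 of both groups, and its log2 fold change was -0.00.

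Relative to this endothelial RNA, the difference in Kdr varied with the library and with the marker used. The marker sums were 323, 264 and 398 CPM in the sensitive and 328, 44.3 and 353 CPM in the resistant libraries. Of these, Cdh5 alone gave 183, 47.8 and 219 CPM and 202, 18.2 and 229.6 CPM, so its weight in the sum differed between libraries. Per 100 CPM of the summed markers, Kdr was 3.81, 2.90 and 2.22 in the sensitive and 1.88, 8.32 and 1.45 in the resistant libraries. Replicates 1 and 3 of the resistant group lay below each sensitive library, and replicate 2, where the marker sum was 44.3 CPM, lay above. The log2 difference was -0.04 (two-sided exact permutation, n = 3 per group, p = 1.000, where the smallest p possible is 0.1). It was -0.82 without replicate 2 of the resistant group and 0.44 without replicate 3 of that group, so this ratio depends on which library is in. Against Cdh5 alone, with all libraries, it was -0.55 (exact permutation p = 0.6), and against the geometric mean of the markers 0.30 (exact permutation p = 0.6). For Flt1 the ratio was 2.24 ± 0.886 in the sensitive and 3.71 ± 2.51 in the resistant group (SD, n = 3 each, exact permutation p = 0.5). The ratio of Flt4 was the most even of these receptors in the sensitive group, at 4.90 ± 0.293, and was 6.53 ± 2.80 in the resistant group (SD, n = 3 each, exact permutation p = 0.5). Adjusted over the 3 receptors, the p-values were 0.75 or more.

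**Figure D4:**
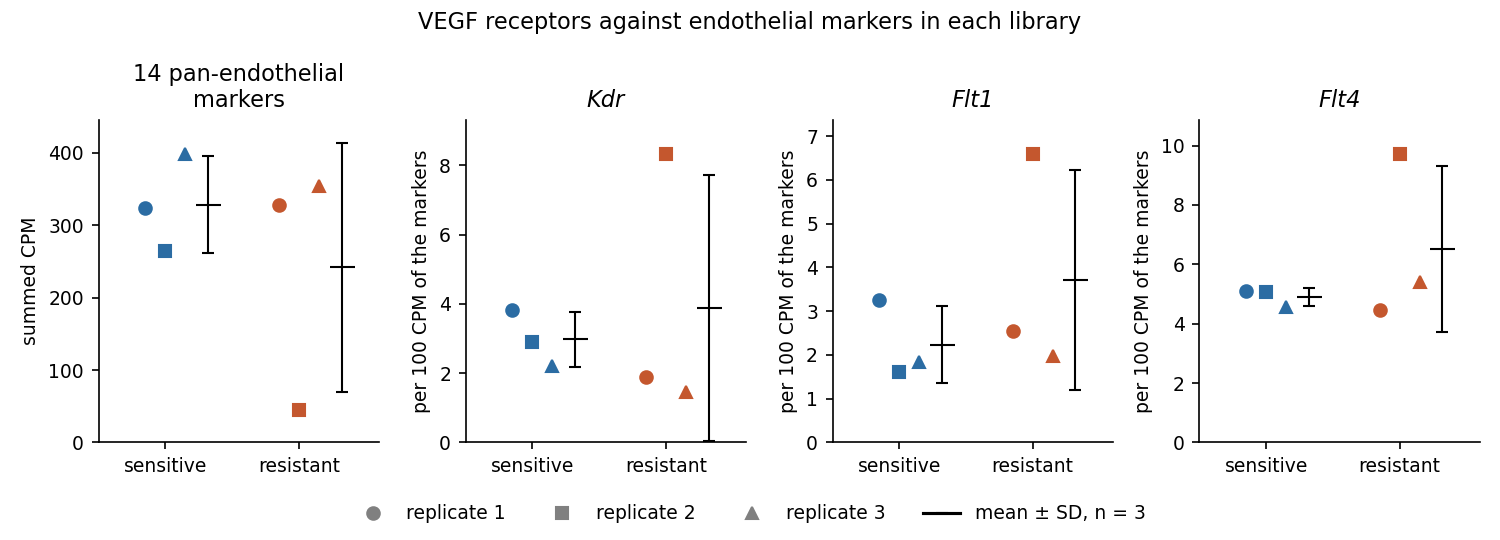
Summed CPM of 14 pan-endothelial markers in each library (left) and CPM of Kdr, Flt1 and Flt4 per 100 CPM of that sum, with means and SDs of 3 libraries per group. Replicate 2 of the resistant group has the lowest marker sum, 44.3 CPM, and the highest ratio for each receptor.

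The genes around the members showed no call. Of 61 tested genes in 5 lists, edgeR called 0 with and 0 without adjustment at 0.05, against 0% and 3.08% of all genes tested. DESeq2 gave 0 and 2, against 0.155% and 4.73% of all genes tested. The groups did not overlap for 6 of the 61, 2 lower and 4 higher, with 9.02% of all genes as background. The median log2 fold change was 0.04 over these genes and 0.01 over all genes tested.

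Among the partners of the neuropilins (class 3 semaphorins, plexins and the ligand gene Vegfd), 11 of 13 genes were tested, 6 negative and 5 positive. Plxna1, Plxnd1 and Plxna2 were the most abundant partners. Plxnd1, a semaphorin receptor of endothelium, was steady, with 87.7 ± 6.83 CPM in the sensitive and 86.1 ± 8.11 CPM in the resistant group (SD, n = 3 each). Plxna1 had 159 ± 114 and 205 ± 41.6 CPM (SD, n = 3 each), and Plxna2 18.7 ± 12.8 and 17.9 ± 11.3 CPM. Vegfd, the other lymphatic ligand, is named after its values were seen and had between 3 and 33 counts per library.

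Of the genes of receptor signalling and trafficking, 23 of 24 were tested, 8 negative and 15 positive, with a median log2 fold change of 0.19. Akt1, a kinase of the survival branch, was higher in each resistant library than in each sensitive library, at 297 ± 44.3 against 352 ± 22.2 CPM (SD, n = 3 each), with a log2 fold change of 0.25 (95% interval -0.23 to 0.73). Gipc1, which binds the tail of neuropilin 1, did not overlap either, with 79.2 to 84.1 CPM in the sensitive and 88.5 to 101 CPM in the resistant group. It is named after its values were seen. Epn1, an endocytic adaptor, had a log2 fold change of 0.04 and Ptprj, a receptor phosphatase, of -0.08. Nos3, the endothelial nitric oxide synthase, is also named after its values were seen and had the most negative value of this list, -1.67, from 5 to 250 counts per library.

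Genes known to respond to VEGF in endothelium were tested for 11 of 11, with 7 negative, 4 positive and a median log2 fold change of -0.29. The abundant ones were Rcan1, an inhibitor of calcineurin (log2 fold change 0.12), Adamts1, a secreted protease (-0.46), and Hlx, a homeobox factor (-0.12). Esm1, a marker of endothelial tip cells that is named after its values were seen, had 7.64, 6.93 and 43.7 CPM in the sensitive and 3.07, 2.31 and 9.36 CPM in the resistant libraries. Resistant replicates 1 and 2 lay below each sensitive library, but resistant replicate 3 lay above sensitive replicates 1 and 2, so the groups overlapped. Its log2 fold change was -1.98, with an unadjusted p of 0.0590 in edgeR's test.

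Regulators of the oxygen response, which controls Vegfa, were tested for 9 of 9, with 6 negative and 3 positive. Hif1a, the inducible subunit, had 198 ± 11.6 CPM in the sensitive and 171 ± 16.9 CPM in the resistant group (SD, n = 3 each), and the groups overlapped. Its partner Arnt had a log2 fold change of 0.24, and Egln2, a prolyl hydroxylase that marks HIF for decay, of -0.67 with 125 ± 86.4 and 78.2 ± 11.2 CPM (SD, n = 3 each). The groups did not overlap for Vhl and Egln1, which are named after their values were seen. Vhl had 37.1 to 57.1 CPM in the sensitive and 34.3 to 36.5 CPM in the resistant group, and Egln1 55.8 to 69.5 and 74.6 to 78.1 CPM. Among extracellular inhibitors of angiogenesis, 7 of 7 were tested, 3 negative and 4 positive. The groups did not overlap for Thbs2 (lower, 9 to 73 counts per library) and Vash2 (higher, 0 to 27 counts), also named after their values were seen. Thbs2 had 1.10, 4.73 and 0.732 CPM in the sensitive libraries, in order of replicate, and at most 0.723 CPM in the resistant ones. Vash2 had at most 0.488 CPM in the sensitive and at least 0.678 CPM in the resistant libraries. Over all genes tested, the groups did not overlap for 9.02%. Thbs1 (thrombospondin 1) was the most abundant gene of the 5 lists, with 1274 ± 719 and 1602 ± 1075 CPM (SD, n = 3 each). Pf4, a chemokine that binds heparin, had a log2 fold change of 0.96 (95% interval -0.51 to 2.42), and Serpinf1 one of -0.96 (95% interval -2.66 to 0.75). In order of replicate, Pf4 had 89.1, 99.6 and 132 CPM in the sensitive and 72.2, 426 and 124 CPM in the resistant libraries. Its higher resistant mean thus rested on resistant replicate 2.

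**Figure D5:**
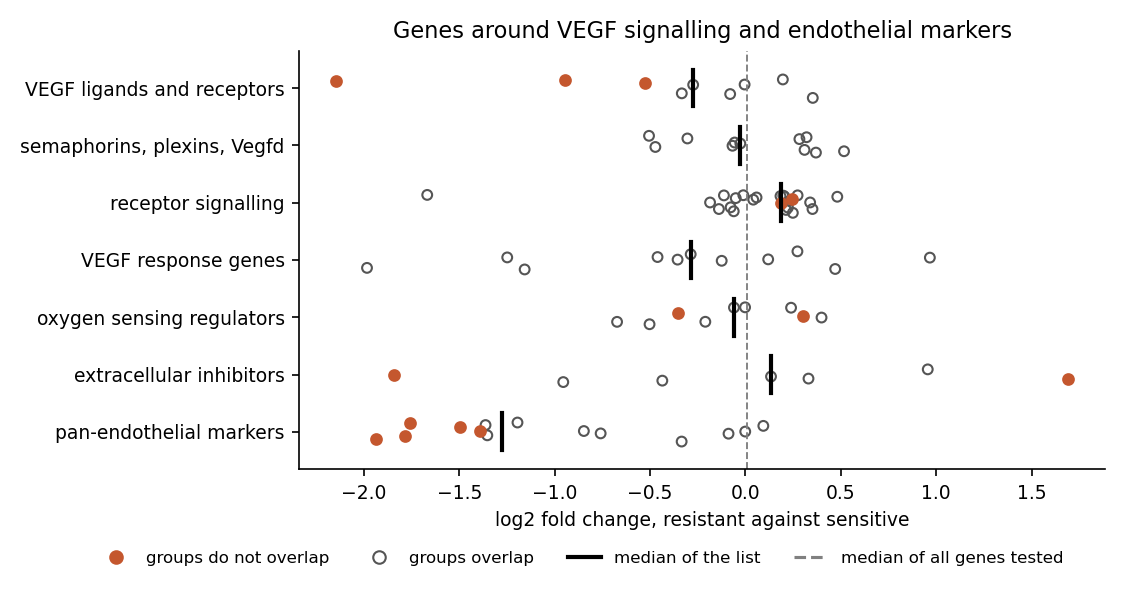
Log2 fold change in resistant against sensitive LSECs of each tested gene of the VEGF family, 5 lists around it and the pan-endothelial markers, with the list median as a black bar and the median of all genes tested (0.01) as a dashed line. Filled points are genes whose groups do not overlap, namely 3 of 9 VEGF genes and 5 of 14 endothelial markers, each lower in the resistant group, and 6 of 61 genes of the lists, 2 lower and 4 higher.

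Patterns over the 6 libraries were compared by Pearson's r of log2 CPM with 9451 genes of mean log2 CPM of at least 3. These values share library depth and cell makeup, are a description over 6 points, and the highest r among so many genes is high by choice. Flt4 was most like Car8 (r = 0.999), Pear1 (0.992) and Podxl (0.982), of which the latter encode membrane proteins found on endothelium and platelets. Nrp2 was most like Fam114a1 (0.997), Slc46a3 and 2610001J05Rik, and Vegfb like Smim14 (0.995), Nars and Creld1. Vegfc was most like Chac1 (0.987), Xrcc4 and Dbf4, Flt1 like Uck1 (0.987), Tsr1 and Rbm25, and Vegfa like Cramp1l (0.985), Leo1 and Runx1. Pgf was most like Mplkip (0.980), Smim10l1 and Map4k4, Nrp1 like Rpl9-ps6 (0.976, a pseudogene that may share reads with its parent), Eid1 and Bcl9l, and Kdr like Peli1 (0.954), Lilra6 and an unannotated locus.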

How the data were processed

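RNA was measured in 6 libraries, 3 per group, assigned by sample title. Per the labels and the study's methods, the authors aligned reads with HISAT2 2.0.5, counted them per gene with featureCounts 1.5.0-p3 and deposited whole-number counts without normalization and FPKM values. For library preparation, the methods mention poly(A) selection as well as removal of ribosomal RNA. The submitters' processing notes name mm9. The gene length behind the deposited FPKM equalled the exon length of GENCODE M21 (GRCm38) for 9 of 9 members, and coordinates are from that annotation, matched by Ensembl identifier. A second deposited table, the authors' own comparison (group means, fold changes and p-values), was not used. The series' design text names LX-2 cells, whereas titles and cell type labels name LSECs.

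The counts went into edgeR 4.0.16 (R 4.3.3), with filterByExpr, TMM, and the quasi-likelihood test with robust moderation, two-sided, without covariates, adjusted by Benjamini-Hochberg over 15474 genes with a threshold of 0.05. CPM used TMM-scaled library sizes, and log2 CPM a prior count of 2. Standard errors are those implied by the F statistic. Single values were tested by exact permutation. Alternatives used DESeq2 1.42.0 and limma 3.58.1. The test was tried on simulated data for 15474 genes. It called 1 of 100 genes given a 2-fold change and 50 of 100 given a 4-fold change. It also called 3 genes that were given no change. Floors cover counting error only, since the sources name no molecular identifiers.

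The members and gene lists were chosen with earlier results of these data known. Text names all members, the 3 most abundant genes of each pathway list and any with an unadjusted p-value under 0.05, and the 3 genes most like each member. The text says where another gene was picked from its values.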

Additional observations from a re-analysis of the deposited data

How the results depend on the processing

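With 3 libraries per group, standard errors of the members' log2 fold changes were between 0.194 (Nrp1) and 0.781 (Vegfc). Of 144 values of the members under alternatives, 1 newly passed the threshold (Pgf, log2 fold change -2.17 with DESeq2), 20 changed sign, none of them for Pgf, Kdr, Nrp1 or Vegfa, and the rest kept sign and adjusted call, though not size. Before adjustment, Kdr missed 0.05 in edgeR's test with library totals alone (0.0545) and no filter (0.0578), and in limma's test on log2(FPKM + 1) (0.0670). Nrp1 missed it in edgeR's test with no filter (0.124). Of all genes tested, 2.44%, 5.98% and 3.06% passed before adjustment with library totals alone, no filter and log2(FPKM + 1). With log2(FPKM + 1), Pgf was -1.22 and Kdr -0.38, and with sample weights Vegfa was 0.01. Limma-voom with sample weights and edgeR without robust moderation were chosen after seeing the data. After adjustment, 0 genes passed 0.05 in edgeR (476 before it), 24 with DESeq2 (732), 2 without a filter (2036) and 1 with limma-voom and sample weights (1484), and leaving out each library gave 0 to 0 (167 to 1056). Of the members 0 passed (3 before adjustment), 1 with DESeq2 (Pgf), and before adjustment 1 without a filter, with 0 to 0 (1 to 3) over libraries left out. Of the pathway genes 0 passed (0 before adjustment), and before adjustment 1 without a filter, 2 with DESeq2 and 4 with sample weights, with 0 to 3 over libraries left out. Of all genes tested, 5.98% passed before adjustment without a filter, 4.73% with DESeq2 and 9.59% with sample weights. The cause was not tested. Of genes passing before adjustment, 82.6% were lower in edgeR, 73.2% with limma-voom, 68.7% with log2(FPKM + 1) and 66.9% with sample weights. In the fit with a replicate block, 0 genes passed after adjustment, and before it 467 of all genes, 3 members and 1 pathway gene, while Nrp2 was 0.0038. Same-numbered libraries deviated with correlations of -0.00093, 0.03 and 0.19, and only sensitive replicate 3 correlated best with its own number, so the numbers were not taken as pairs.

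Signs also changed for Nrp2 with limma-voom (0.034), sample weights (0.025) and log2(FPKM + 1) (0.079), and without sensitive replicate 3 (0.55) or resistant replicate 1 (0.22), in a range of -0.44 to 0.55 over libraries left out. Vegfb changed with library totals alone (0.073), no filter (0.089), limma-voom (0.0022), sample weights (0.29) and log2(FPKM + 1) (0.059), and without sensitive replicate 2 (0.21) or resistant replicate 1 (0.18), in a range of -0.12 to 0.21. Vegfc changed with sample weights (-0.49) and without sensitive replicate 2 (-0.25), sensitive replicate 3 (-0.13) or resistant replicate 2 (-0.15), in a range of -0.25 to 1.56. Flt1 ran from -0.56 to 0.073 (0.073 without sensitive replicate 1, 0.07 without resistant replicate 2) and Flt4 from -0.75 to 0.087, without resistant replicate 2. Relative to endothelial markers, the log2 difference of Kdr was 0.30 with their geometric mean, -0.55 against Cdh5 alone, and ran from -0.82 to 0.44 over libraries left out, that of Flt1 from 0.08 to 0.94, and that of Flt4 from 0.0039 to 0.57 (-0.18 against Cdh5 alone). With a library left out, 2 to 3 neighbour pairs kept 1 order in all libraries.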

Other observations

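Among the 36 pairs of members, the highest Pearson's r of log2 CPM over the 6 libraries was that of Vegfa with Vegfc (0.93, and 0.85 without replicate 2 of the sensitive group). Pgf and Nrp1 followed (0.89 and 0.84), then Flt1 and Flt4 (0.82 and 0.90). Vegfa and Pgf ran opposite ways (-0.82 and -0.69). Nrp1 and Nrp2, which share structure and ligands, had an r of 0.18 with all libraries and 0.79 without that replicate, so the value depends on that library. These are descriptions over 6 libraries that share depth and cell makeup.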
